A study of Rattus norvegicus with 9 samples.

Results

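The chemokine ligands of the rat colon carcinoma line CC-531 were described across ex vivo tumors, organoids and cells. They were taken as every row of the count table whose symbol is Cxcl or Ccl followed by a number, together with Cx3cl1 and Xcl1, whatever their level. This gave 34 of the 34322 genes in the table, and 33 of the 34 had a count in at least 1 library, the exception being Ccl26. RNA was sequenced from 9 libraries, 3 per sample type. The ex vivo tumors 1, 2 and 3 grew in the peritoneum of WAG/Rij rats, the inbred strain the line comes from, which were 8 to 10 weeks old when CC-531 cells were injected into the abdominal cavity. The organoids (passages p7, p8 and p9) were CC-531 cells grown in matrigel, and the cells (passages p5, p8 and p11) were grown in RPMI medium with serum. None of the 9 is labelled as treated with drug or heat. All come from 1 cell line, and the labels do not say whether the tumors came from separate rats, so the spread behind the p-values is that of these libraries and may be technical. Tumor tissue holds host cells beside the carcinoma cells, and in such bulk RNA fewer cells of a type and less RNA per cell cannot be told apart.

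Chemokines are small secreted proteins that guide leukocytes by binding G protein-coupled receptors, and they are grouped into C, CC, CXC and CX3C ligands by the spacing of their conserved cysteines. CXC ligands that carry the residues ELR before the cysteines attract neutrophils, the interferon-induced CXC ligands attract activated T and NK cells through CXCR3, inflammatory CC ligands attract monocytes and other leukocytes, and homeostatic ligands position lymphocytes and dendritic cells in lymphoid tissue. In intestinal tumors, ligands can be made by the epithelial cells as well as by stromal and immune cells.

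Total counts were 12601774 to 18438055 in ex vivo tumors, 15968793 to 20444595 in organoids and 16983060 to 24335921 in cells, and levels are given as CPM, the count of a gene relative to the TMM-scaled total of its library. The epithelial genes Epcam (932 to 1055 CPM in ex vivo tumors, 775 to 968 in organoids and 598 to 906 in cells) and Cdh1, which encodes E-cadherin, were present in all 9 libraries. Of the intestinal transcription factors, Cdx2 had 33.25 to 38.6 CPM in ex vivo tumors, 38.4 to 137 CPM in organoids and 39.9 to 50.2 CPM in cells, while Cdx1 was at or near 0 throughout. For some ligands but not all, ex vivo 1 stood apart from ex vivo 2 and 3, organoids p7 from p8 and p9, and cells p11 from p5 and p8. Ex vivo 1 had 97.1 times the mean of the other tumors for Ccl21 and 1.08 times for Cxcl16. Organoids p7 had 0.129 times the mean of p8 and p9 for Cxcl6 and 4.06 times for Cxcl11. Cells p11 had 5.36 times the mean of p5 and p8 for Cxcl1 and 1.07 times for Cxcl11.

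A ligand was counted as made by the cultures if its mean was at least 1 CPM in cells or organoids, and as seen only in ex vivo tumors if it was below 1 CPM in each of the 6 culture libraries with a mean of at least 1 CPM in the tumors. By these levels 9 ligands were made by the cultures (Cxcl1, Cxcl2, Cxcl3, Cxcl6, Cxcl10, Cxcl11, Cxcl16, Cx3cl1 and Ccl20) and 19 were seen only in ex vivo tumors (Cxcl9, Cxcl12, Cxcl13, Cxcl14, Cxcl17, Ccl1, Ccl2, Ccl3, Ccl4, Ccl5, Ccl6, Ccl7, Ccl9, Ccl12, Ccl19, Ccl21, Ccl22, Ccl24 and Xcl1). The other 6 (Ccl11, Ccl17, Ccl25, Ccl26, Ccl27 and Ccl28) stayed under 1 CPM on average in every sample type. Without ex vivo 1, 17 ligands were seen only in ex vivo tumors, as Ccl19, Ccl1 and Cxcl14 left that group and Ccl25 joined it, while the 9 of the cultures stayed the same. The split uses the levels themselves, so the tests of its members are no support for it.

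Across the 33 ligands, the quasi-likelihood test of edgeR called 26 higher and 1 lower in ex vivo tumors than in cells at an adjusted p under 0.05, where 15.6% of all 27324 genes with a count were called higher and 5.57% lower. Between ex vivo tumors and organoids 22 were called higher and 4 lower, with 14.7% and 7.43% of all genes. Between organoids and cells 5 were called higher and 2 lower, with 4.82% and 2.91% of all genes. The median log2 fold change of the ligands was 7.01 in ex vivo tumors against cells, where all genes had 0.31, and 6.96 against organoids, where all genes had 0.27. After removal of genes with low counts by filterByExpr, 27 ligands remained, of which edgeR called 19 higher and 0 lower in ex vivo tumors than in cells (of all 16162 genes kept, 20.2% and 8.33%). It called 18 higher and 3 lower than in organoids (19.6% and 10.4% of all), and 2 higher and 0 lower in organoids than in cells, where 5.41% and 4.02% of all were called, so that the share of ligands called higher was near that of all genes. Beside the counts of 0, 1 ligand was lower in tumors than in cells and 2 were lower in organoids than in cells at an unadjusted p under 0.05, and DESeq2 called 0 and 1. The test without the filter was the less strict of these, so a ligand is said to have risen or fallen only where it passed with the filter as well. A member that passes the filter through the sample type where it is high has to differ, so these counts describe the family and do not test it. The 3 comparisons share their libraries and are not independent of each other.

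The ligands summed to 1020, 715 and 690 CPM in ex vivo 1, 2 and 3, 324, 2036 and 1609 CPM in organoids p7 through p9 (in this order throughout), and 381, 306 and 1166 CPM in cells p5, p8 and p11. Cxcl6 took 11.2% to 21.4% of the ligand counts in ex vivo tumors, 60.55% to 84.35% in organoids and 59.8% to 78.7% in cells, shares that also depend on transcript length. The sums were made of different ligands: ELR ligands gave 113 to 178 CPM of the sum in tumors, 219 to 1842 CPM in organoids and 194 to 966 CPM in cells, whereas the inflammatory CC ligands gave 49.0 to 95.3 CPM in tumors, 0.197 to 3.94 CPM in organoids and 0 to 1.2 CPM in cells.

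The ELR CXC ligands Cxcl1, Cxcl2, Cxcl3 and Cxcl6, which attract neutrophils through CXCR2, were all made by the cultures. Without the filter all 4 were called lower in ex vivo tumors than in organoids, where 7.43% of all genes were. With the filter 3 of the 4 were (Cxcl2, Cxcl3 and Cxcl6), against 10.4% of all genes. With a robust estimate of the spread, only 1 of all ligands was called lower. Of the 34 ligands, 28 had a promoter entry in RefSeq (assembly GRCr8, 250 bases before to 50 bases after the gene start). The consensus of NF-kB, the transcription factor known to drive these genes in inflammation, was searched on both strands and matched 7 of the 28 promoters (Ccl20, Ccl9, Cxcl1, Cxcl10, Cxcl11, Cxcl2 and Cxcl6) and 4.18% of all 33469 promoters. Another form, GGGA followed by 2 free bases and TTCC, was found in 5 of the 28 (Ccl7, Cxcl1, Cxcl10, Cxcl11 and Cxcl6) and in 1.3% of all promoters. Its matches overlapped those of the consensus, except in Ccl7 and at 128 and 127 bases before the start of Cxcl10. The stretches around the match are shown for the ELR ligands, on the strand of the gene (minus), because this group carries most of the ligand counts of the cultures, with the bases matched by the consensus in capitals. A match is a run of letters and not a measured binding site.
Cxcl1, chr14:17479335-17479445: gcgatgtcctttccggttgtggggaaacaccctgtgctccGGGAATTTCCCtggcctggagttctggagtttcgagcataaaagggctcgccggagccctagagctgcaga
Cxcl2, chr14:17467259-17467369: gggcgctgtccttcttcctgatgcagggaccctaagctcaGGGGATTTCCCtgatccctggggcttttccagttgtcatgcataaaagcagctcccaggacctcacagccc
Cxcl6, chr14:17596435-17596545: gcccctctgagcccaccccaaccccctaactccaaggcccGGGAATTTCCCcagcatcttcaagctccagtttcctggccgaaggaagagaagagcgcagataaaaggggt
The match began 84 bases before the start of Cxcl1, 74 before that of Cxcl2 and 88 before that of Cxcl6. Cxcl1 and Cxcl6 carried the same matched letters.

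Cxcl6 had 114, 153 and 93.6 CPM in ex vivo 1, 2 and 3, against 196, 1718 and 1314 CPM in organoids p7 through p9 and 244, 183 and 918 CPM in cells p5, p8 and p11. All 3 tumors lay below all 6 cultures, and organoids p8 and p9 and cells p11 lay far above the other cultures. Cxcl6 fell 8.94-fold in ex vivo tumors relative to organoids (log2 fold change -3.16, SE 0.50, adjusted p 5.9e-06, with the filter 0.0079), and with the robust estimate of the spread this call was lost (adjusted p 0.076). Relative to cells the log2 fold change was -1.90 (SE 0.48), with an adjusted p of 0.0028 without and 0.075 with the filter, and of 0.24 without cells p11. Between organoids and cells it was 1.26 (SE 0.47, adjusted p 0.10) and 1.76 without organoids p7 (adjusted p 3.1e-06). That adjusted p also came to 2.3e-06 when ex vivo 1, which is not in the comparison, was left out, at the same log2 fold change of 1.26.

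Cxcl1 had 11.7, 18.1 and 11.5 CPM in ex vivo 1, 2 and 3, 15.1, 71.0 and 60.9 CPM in organoids p7 through p9 and 6.69, 8.31 and 40.2 CPM in cells p5, p8 and p11. The tumors overlapped with organoids p7 and lay between the low and the high cell libraries. The log2 fold change of Cxcl1 in ex vivo tumors against organoids was -1.83 (SE 0.47), with an adjusted p of 0.0031 without and 0.068 with the filter. Against cells it was -0.41 (SE 0.46, adjusted p 0.55), and 0.88 without cells p11. In organoids against cells it was 1.41 (SE 0.46, adjusted p 0.052) and 1.84 without p7 (adjusted p 3.0e-06).

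Cxcl2 was the ELR ligand with the largest difference between organoids and cells. It had 2.72, 3.56 and 3.98 CPM in ex vivo 1, 2 and 3, 2.47, 24.1 and 24.1 CPM in organoids p7 through p9 and 0.18, 0.396 and 1.42 CPM in cells p5, p8 and p11, so that cells lay below all other libraries. Cxcl2 rose 25.6-fold in organoids relative to cells (log2 fold change 4.68, SE 0.65, adjusted p 3.9e-06, with the filter 0.0075), and 58.6-fold without cells p11. It rose 5.2-fold in ex vivo tumors relative to cells (adjusted p 0.0036, with the filter 0.049), a call lost without cells p5 (0.088), with the robust spread (0.16) and with both limma tests (0.38 on quantile-normalized values and 0.051 with voom), and it was 11.9-fold without cells p11. It fell 4.92-fold in ex vivo tumors relative to organoids (adjusted p 0.0021, with the filter 0.043), although p7 lay below the tumors, and with the robust spread its adjusted p was 0.13. Without p7 the log2 fold change was -2.82 against -2.30 with it.

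Cxcl3 had 5.08, 3.31 and 3.44 CPM in ex vivo 1, 2 and 3, 5.52, 29.6 and 29.5 CPM in organoids p7 through p9 and 2.47, 2.38 and 7.11 CPM in cells p5, p8 and p11. As for Cxcl2, organoids p8 and p9 were the highest libraries. Cxcl3 fell 5.46-fold in ex vivo tumors relative to organoids (log2 fold change -2.45, SE 0.48, adjusted p 0.00014, with the filter 0.011). It rose 5.41-fold in organoids relative to cells (adjusted p 0.00058, with the filter 0.031), with cells p11 above organoids p7, and the call was lost with the robust spread (adjusted p 0.058) and with limma on quantile-normalized values (0.15). Without p11 the rise was 8.86-fold. Ex vivo tumors and cells differed by -0.01 on the log2 scale (SE 0.47), so no difference was found.

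Organoids p7 had 0.102 to 0.229 times the mean of p8 and p9 for these 4 ligands, and cells p11 had 2.94 to 5.36 times the mean of p5 and p8. Only 3 libraries per sample type were measured, and the part of passage in these differences was not tested. Ppbp, which encodes another ELR ligand (CXCL7) and lies outside the symbol rule, had 119.6, 102 and 89.4 CPM in ex vivo 1, 2 and 3, 163, 670 and 590 CPM in organoids p7 through p9 and 347, 367 and 451 CPM in cells p5, p8 and p11. Ppbp fell in ex vivo tumors relative to organoids (log2 fold change -2.20, adjusted p 3.0e-06) and to cells (-1.91, adjusted p 2.6e-05), and organoids p7 was again the lowest organoid library. Pf4, which encodes platelet factor 4, had 6.34 to 12.4 CPM in ex vivo tumors, 4.14 to 9.11 CPM in organoids and 3.1 to 12.8 CPM in cells and passed in none of the comparisons. The receptor Cxcr2 had 0.859, 1.98 and 3.29 CPM in ex vivo 1, 2 and 3 and at most 0.264 CPM in organoids and 0.341 CPM in cells, and it rose in ex vivo tumors relative to both cultures (adjusted p 0.00065 against organoids and 0.0019 against cells). Of the 7 neutrophil markers, 4 were called higher in ex vivo tumors than in cells, where 15.6% of all genes were. The 7 summed to 34.1 to 41.9 CPM in tumors, 0.395 to 4.81 CPM in organoids and 0.396 to 1.08 CPM in cells. Csf3r, the receptor for the neutrophil growth factor G-CSF, had no count in any culture, and Elane was at or near 0 in every library.

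**Figure D1:**
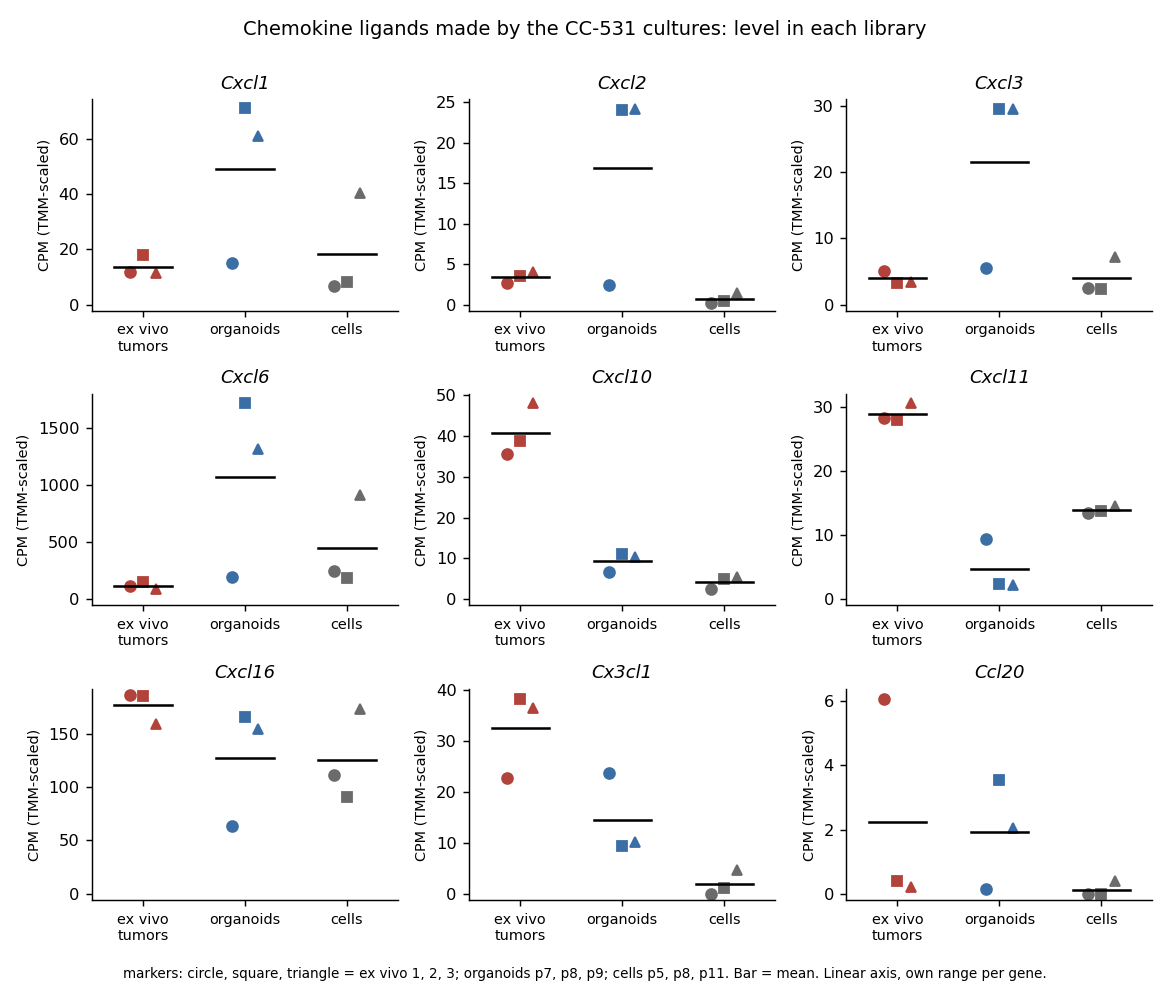
CPM (TMM-scaled, linear axes) of the 9 ligands made by the cultures, with 1 marker per library and a bar at the mean of each sample type. Organoids p8 and p9 lie above all other cultures, and cells p11 above the other cells, for Cxcl1, Cxcl2, Cxcl3 and Cxcl6 (Cxcl6: 1718, 1314 and 918 CPM), while Cxcl10 and Cxcl11 are highest in all 3 ex vivo tumors.

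The CXCR3 ligands Cxcl9, Cxcl10 and Cxcl11, which interferon-gamma induces, rose in ex vivo tumors relative to organoids, all 3 of them. Cxcl9 differed from its relatives in that the cultures had almost none of it. The promoters of Cxcl10 and Cxcl11 lie on the plus strand, again with the bases matched by the NF-kB consensus in capitals. They are shown because both ligands were made by the cultures and rose in the tumors relative to organoids. For Cxcl10 a further stretch has the interferon response element in capitals (GAAA, 2 free bases and GAAA again, on either strand), which matched 2 of the 28 ligand promoters (Ccl19 and Cxcl10) and 3.92% of all promoters.
Cxcl10 (NF-kB consensus), chr14:15988839-15988948: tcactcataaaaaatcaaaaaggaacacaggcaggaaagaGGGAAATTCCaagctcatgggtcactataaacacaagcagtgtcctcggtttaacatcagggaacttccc
Cxcl11 (NF-kB consensus), chr14:15973614-15973723: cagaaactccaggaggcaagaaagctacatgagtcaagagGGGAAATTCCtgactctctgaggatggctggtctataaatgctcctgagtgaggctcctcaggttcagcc
Cxcl10 (interferon response element), chr14:15988816-15988892: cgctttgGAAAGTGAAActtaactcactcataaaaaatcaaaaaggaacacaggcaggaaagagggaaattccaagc
The NF-kB match began 187 bases before the start of Cxcl10 and 74 before that of Cxcl11, and the interferon response element began 243 bases before the start of Cxcl10.

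Cxcl10 had 35.7, 38.7 and 48.0 CPM in ex vivo 1, 2 and 3, 6.66, 11.1 and 10.4 CPM in organoids p7 through p9 and 2.6, 4.92 and 5.4 CPM in cells p5, p8 and p11. The 3 sample types did not overlap, with tumors at the top and cells at the bottom. Cxcl10 rose 9.49-fold in ex vivo tumors relative to cells (log2 fold change 3.25, SE 0.35, adjusted p 2.0e-09) and 4.36-fold relative to organoids (2.12, SE 0.33, adjusted p 3.7e-06). Organoids against cells gave 1.12 (SE 0.33), with an adjusted p of 0.026 without and 0.052 with the filter.

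Cxcl11 had 28.3, 28.1 and 30.7 CPM in ex vivo 1, 2 and 3, 9.37, 2.44 and 2.18 CPM in organoids p7 through p9 and 13.5, 13.7 and 14.6 CPM in cells p5, p8 and p11. The order of the cultures was the reverse of that for Cxcl10, with organoids below cells. Cxcl11 rose 6.17-fold in ex vivo tumors relative to organoids (log2 fold change 2.62, SE 0.40, adjusted p 2.6e-06), and 12.5-fold without p7. Against cells the log2 fold change was 1.06 (SE 0.38), with an adjusted p of 0.040 without and 0.096 with the filter, and without each of ex vivo 2, cells p5, cells p8 and cells p11 it was 0.075 to 0.17. Organoids against cells gave -1.57 (SE 0.39), with an adjusted p of 0.0069 without and 0.053 with the filter, and without p7, the highest organoid library for Cxcl11, the value was -2.60.

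Cxcl9 had 47.4, 99.1 and 76.7 CPM in ex vivo 1, 2 and 3, against 0.148, 0 and 0.132 CPM in organoids p7, p8 and p9 and no count in cells. It rose 740.5-fold in ex vivo tumors relative to organoids, which had 5 counts in all (adjusted p 5.4e-16), and at least 1489-fold relative to cells, taking 3 counts over the cell libraries as the floor (adjusted p 1.2e-16). Without p7, which held 3 of the 5 counts, the ratio to organoids was 1288 (exact 95% counting interval 356 to 10640). The receptor Cxcr3 had 8.3, 2.92 and 5.58 CPM in ex vivo 1, 2 and 3, 0.148 to 0.198 CPM in organoids and 0.171 to 0.898 CPM in cells, and it rose in tumors relative to both cultures (adjusted p 7.3e-07 against organoids and 9.6e-05 against cells). Irf1, a transcription factor of the interferon response named here after its values were seen, rose in tumors (log2 fold change 2.56 against organoids and 2.79 against cells). The 12 markers of T and NK cells were all called higher in tumors than in either culture and summed to 340, 156 and 224 CPM in ex vivo 1, 2 and 3, 0.667 to 0.989 CPM in organoids and 0.225 to 0.74 CPM in cells, with Cd3d, Cd3e, Cd2, Cd4, Cd8b, Klrb1a and Prf1 at 0 in both cultures. Among all genes, 14.7% were called higher than in organoids and 15.6% higher than in cells. The part of T and NK cells in the levels of these ligands was not tested.

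Cxcl16, a transmembrane ligand of CXCR6 that ADAM10 can shed, passed in none of the 3 comparisons. It had 186, 185 and 159 CPM in ex vivo 1, 2 and 3, 63.5, 165 and 154 CPM in organoids p7 through p9 and 111, 91.0 and 173 CPM in cells p5, p8 and p11, so that the 3 sample types overlapped. The log2 fold change was 0.47 (SE 0.29, adjusted p 0.28) in ex vivo tumors against organoids, 0.50 (SE 0.29, adjusted p 0.25) against cells and 0.03 (SE 0.29) in organoids against cells, so that no difference was found at this spread. Its receptor Cxcr6 had 3.08, 3.26 and 6.27 CPM in ex vivo 1, 2 and 3 and at most 0.197 CPM in the cultures. It rose in tumors (log2 fold change 5.72 against organoids and 6.68 against cells).

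Cx3cl1, or fractalkine, is the membrane-bound ligand of CX3CR1. It had 22.8, 38.4 and 36.6 CPM in ex vivo 1, 2 and 3, 23.7, 9.44 and 10.2 CPM in organoids p7 through p9 and 0.0449, 1.24 and 4.61 CPM in cells p5, p8 and p11, so that every cell library lay below every other library. Cx3cl1 rose 16.8-fold in ex vivo tumors relative to cells (log2 fold change 4.07, SE 0.59, adjusted p 1.3e-06, with the filter 0.0036 and with the robust spread 0.055), 11.1-fold without cells p5 and 52.7-fold without p11. Organoids against cells gave 2.90 (SE 0.57), with an adjusted p of 0.00063 without and 0.052 with the filter. Ex vivo tumors against organoids gave 1.17 (SE 0.52, adjusted p 0.11), and 1.73 without p7 (adjusted p 0.00034), since p7 was above ex vivo 1. The receptor Cx3cr1, which marks monocytes and macrophages, had 4.44, 13.1 and 21.4 CPM in ex vivo 1, 2 and 3 and no count in any culture.

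Ccl20 attracts CCR6-bearing lymphocytes and dendritic cells and is known as a product of intestinal epithelium. It had 6.08, 0.395 and 0.229 CPM in ex vivo 1, 2 and 3, 0.148, 3.55 and 2.04 CPM in organoids p7 through p9 and 0, 0 and 0.398 CPM in cells p5, p8 and p11. Ex vivo 1 was 19.5 times the mean of the other tumors, and p7 was 0.0528 times the mean of p8 and p9. The log2 fold change in ex vivo tumors against cells was 4.06 (SE 1.10), with an adjusted p of 0.0057 without and 0.071 with the filter, and 1.30 without ex vivo 1 (adjusted p 0.37). Against organoids it was 0.22 (SE 0.88) and turned to -2.55 without ex vivo 1 (adjusted p 0.010). Organoids against cells gave 3.84 (SE 1.10), with an adjusted p of 0.023 without and 0.14 with the filter. The receptor Ccr6 had 19.6, 2.13 and 4.36 CPM in ex vivo 1, 2 and 3 and no count in any culture, so that ex vivo 1 was the highest for the receptor as well.

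**Figure D2:**
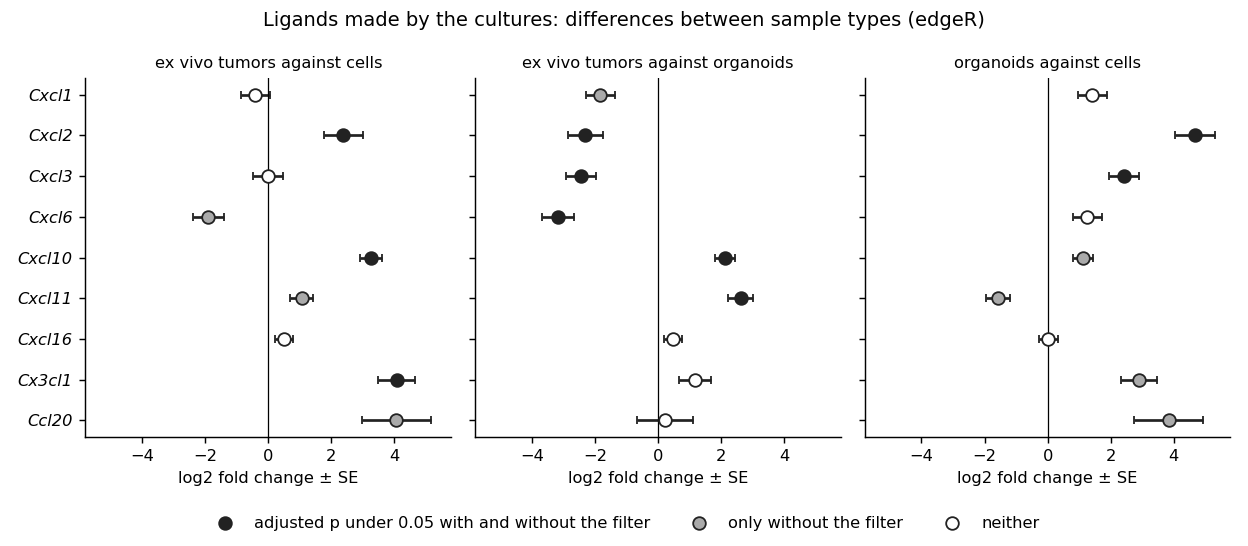
Log2 fold changes (points) with their standard errors (bars) of the 9 ligands made by the cultures in the 3 comparisons, from edgeR without a filter; the fill of a point says whether the adjusted p was under 0.05 with and without the filter. The ELR ligands lie left of 0 in ex vivo tumors against organoids (-3.16 to -1.83) and right of 0 in organoids against cells (1.26 to 4.68), while Cxcl10 lies right of 0 in all 3.

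The ligands seen only in ex vivo tumors were 5 CXC ligands, 13 CC ligands and Xcl1. Of all 33 ligands with a count, 13 had none in any of the 6 culture libraries, 11 of them among these 19, while 14.6% of all genes with a count had theirs in the tumors alone. With and without the filter, 16 of the 19 rose relative to cells and 16 relative to organoids. With the filter, 20.2% of all genes were called higher than in cells and 19.6% higher than in organoids. The 19 were chosen for being high in the tumors and low in the cultures, so these counts are no support for the split. The highest tumor was ex vivo 1 for 16 of the 19 and ex vivo 2 for 3, and ex vivo 1 was at least 2 times the mean of the other tumors for 11.

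**Figure D3:**
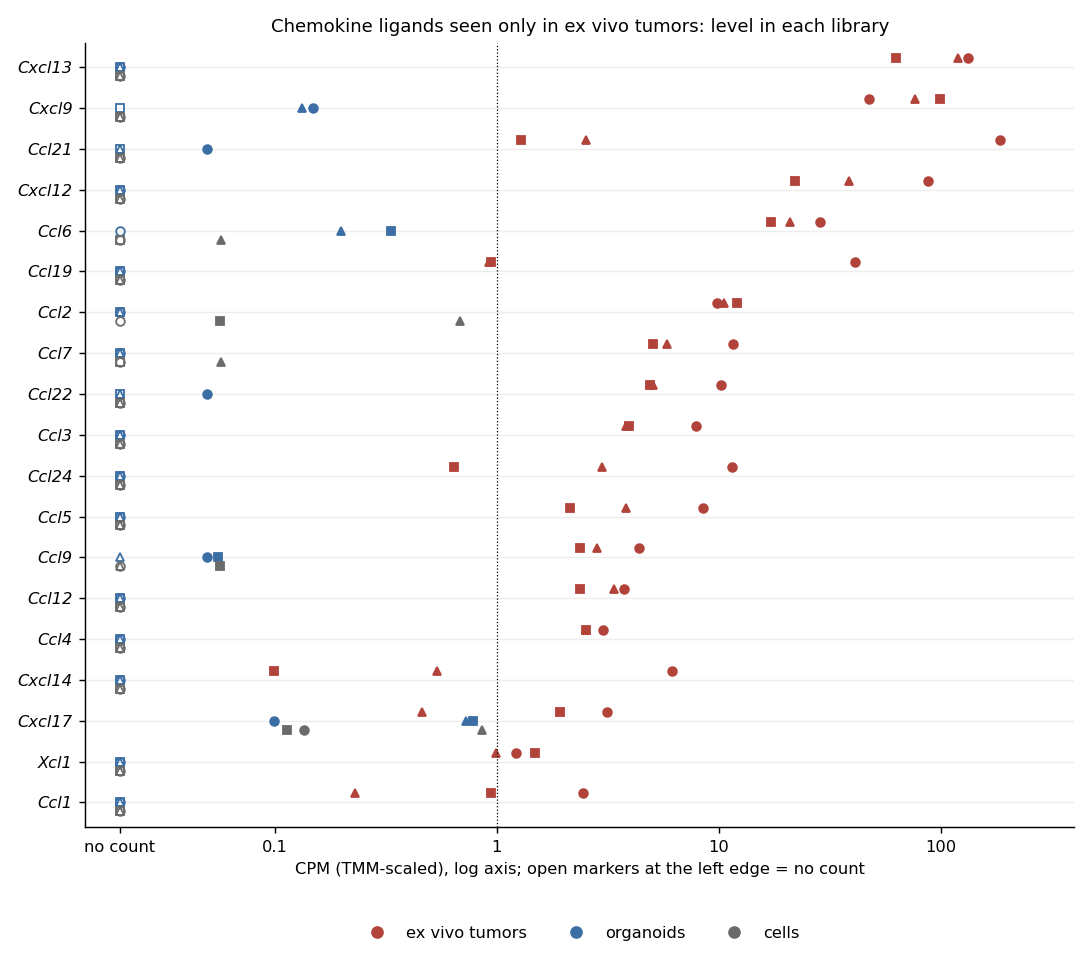
CPM (TMM-scaled, log axis) of the 19 ligands seen only in ex vivo tumors in each library, with circles for ex vivo 1, organoids p7 and cells p5, squares for ex vivo 2, organoids p8 and cells p8, and triangles for ex vivo 3, organoids p9 and cells p11; open markers at the left edge are libraries with no count and the dotted line is at 1 CPM. Most cultures sit at no count, and Ccl21 and Ccl19 show ex vivo 1 (185 and 41.2 CPM) far to the right of the other tumors.

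Among the CXC ligands, Cxcl13, the attractant of B cells and follicular helper T cells, had 133, 63.0 and 119 CPM in ex vivo 1, 2 and 3 and no count in either culture. It rose at least 1766-fold relative to organoids (adjusted p 4.8e-17) and at least 1901-fold relative to cells (adjusted p 4.0e-17), against a floor of 3 counts over each culture. Its receptor Cxcr5 was also counted in the cultures, with 15.0, 2.08 and 3.67 CPM in ex vivo 1, 2 and 3, 2.31 to 2.56 CPM in organoids and 0.967 to 1.81 CPM in cells. Cxcl12, the stromal ligand of CXCR4, had 87.5, 21.9 and 38.8 CPM in ex vivo 1, 2 and 3 and no count in either culture, a rise of at least 819-fold relative to organoids and at least 881.6-fold relative to cells (at least 508-fold and 547-fold without ex vivo 1). Cxcr4 had 56.5, 17.7 and 30.0 CPM in the same tumors, 0.69 to 0.989 CPM in organoids and 0.226 to 0.494 CPM in cells. Cxcl12 and Cxcr4 had the same order over the 3 tumors, as did Ccl22 and Ccr4, whereas Cxcl9 and Cxcr3 did not. The atypical receptor Ackr3, which binds CXCL12 and takes it up, had 26.1, 20.7 and 22.2 CPM in ex vivo 1, 2 and 3, 20.2, 59.6 and 52.8 CPM in organoids p7 through p9 and 4.94, 5.32 and 7.68 CPM in cells p5, p8 and p11. Ackr3 thus was present in cultures that had no count of Cxcl12, and it rose in organoids relative to cells (log2 fold change 2.89, adjusted p 3.4e-07) and in ex vivo tumors relative to cells (1.94, adjusted p 2.3e-05). The 8 fibroblast markers, all called higher in tumors than in either culture, summed to 5927, 4221 and 8962 CPM in ex vivo 1, 2 and 3, 6.44 to 15.8 CPM in organoids and 4.27 to 6.09 CPM in cells, with Dcn and Lum at 0 in both cultures. The shares of all genes called higher were 14.7% against organoids and 15.6% against cells. The order of the fibroblast sums over the tumors was not that of Cxcl12, and the part of fibroblasts in its level was not tested.

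Cxcl14 had 6.16, 0.0988 and 0.535 CPM in ex vivo 1, 2 and 3 and no count in the cultures. It was 19.4 times the mean of the other tumors in ex vivo 1, did not pass the filter, and its test without the filter (adjusted p 9.5e-05 against cells) was lost without ex vivo 1 (0.069). Cxcl17, a mucosal ligand, had counts in all 6 culture libraries. It had 3.15, 1.93 and 0.459 CPM in ex vivo 1, 2 and 3, 0.0986, 0.777 and 0.725 CPM in organoids p7 through p9 and 0.135, 0.113 and 0.853 CPM in cells p5, p8 and p11. Ex vivo 3 lay below 3 of the culture libraries. The log2 fold change against cells was 2.34 (SE 0.81), with an adjusted p of 0.034 without and 0.076 with the filter, and against organoids it was 1.80 (adjusted p 0.10).

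The inflammatory CC ligands included the monocyte attractants that act on CCR2. Ccl2, also called MCP-1, had 9.8, 12.1 and 10.5 CPM in ex vivo 1, 2 and 3, no count in organoids and 0, 0.0565 and 0.683 CPM in cells p5, p8 and p11. The 3 tumors lay close together and all counts of Ccl2 in the cultures came from cells p8 and p11. Ccl2 rose at least 196-fold in ex vivo tumors relative to organoids (adjusted p 3.3e-09) and 44.5-fold relative to cells (adjusted p 3.0e-07). The size relative to cells depended on single libraries, with 28.7-fold without cells p5 and, with 1 count left in cells without p11, a ratio of 438 (exact 95% counting interval 78.3 to 17350). Organoids against cells, with 0 against 13 counts, had an adjusted p of 0.025 without and 0.12 with the filter, and 0.56 without cells p11. Ccl7, a relative of Ccl2, had 11.5, 5.04 and 5.81 CPM in ex vivo 1, 2 and 3 and 1 count in all cultures together, in cells p11. Ccl12, described in mice as a further CCR2 ligand, had 3.72, 2.37 and 3.36 CPM in the tumors and no count in the cultures. Ccl7 and Ccl12 rose in tumors relative to both cultures (adjusted p at most 3.4e-07 without and 0.00025 with the filter). The receptor Ccr2 had 9.8, 14.3 and 20.1 CPM in ex vivo 1, 2 and 3, 0 to 0.167 CPM in organoids and no count in cells.

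Ccl3, Ccl4 and Ccl5, inflammatory ligands made by activated macrophages and T cells, had no count in any culture. Ccl3 had 7.87, 3.95 and 3.82 CPM in ex vivo 1, 2 and 3, Ccl4 had 3.01, 2.52 and 2.52 CPM, and Ccl5 had 8.45, 2.13 and 3.82 CPM. All 3 rose in tumors, by at least 47.5-fold (Ccl4) to at least 90.4-fold (Ccl3) relative to organoids and by at least 51.1-fold (Ccl4) to at least 97.3-fold (Ccl3) relative to cells. Ex vivo 1 was the highest tumor for each of them. Without it the bounds for Ccl5 were 49.7-fold relative to organoids and 53.5-fold relative to cells, against 79.5-fold and 85.6-fold with it. Bounds against a culture with no count also fall when one of its libraries is left out, since the floor is then set over a smaller total.

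Ccl6 and Ccl9, rodent ligands that act on CCR1 in mice, had a few counts in the cultures. Ccl6 had 28.6, 17.1 and 21.0 CPM in ex vivo 1, 2 and 3, 0, 0.333 and 0.198 CPM in organoids p7 through p9 and 1 count in cells, and it rose 125-fold in tumors relative to organoids (adjusted p 2.3e-11), 80.3-fold without p7 and, with 3 counts left in organoids, at a ratio of 255 (exact 95% counting interval 87.0 to 1239) without p8. Relative to cells the ratio was 1242, with an exact 95% counting interval of 222 to 49110. Ccl9 had 4.37, 2.37 and 2.83 CPM in ex vivo 1, 2 and 3, with 2 counts in organoids and 1 in cells, and it rose relative to both (adjusted p 1.2e-06 against organoids and 4.0e-07 against cells). Ccr1 was the receptor with the largest log2 fold change between the cultures. It had 3.22, 2.57 and 3.9 CPM in ex vivo 1, 2 and 3, 0.444, 16.2 and 13.9 CPM in organoids p7 through p9 and 0.18, 0.113 and 0.455 CPM in cells p5, p8 and p11. Ccr1 rose in organoids relative to cells (log2 fold change 5.33, adjusted p 9.3e-06, with the filter 0.0099), although p7 overlapped with the cells. Ccl24, an eotaxin that attracts eosinophils through CCR3, had 11.5, 0.642 and 2.98 CPM in ex vivo 1, 2 and 3 and no count in the cultures. It rose by at least 79.9-fold relative to organoids and at least 86.0-fold relative to cells, with ex vivo 1 at 6.32 times the mean of the other tumors. Without ex vivo 1 these bounds were 27.8-fold relative to organoids and 29.9-fold relative to cells, and without ex vivo 2 they were 131-fold and 141-fold. The 12 macrophage markers summed to 3382, 3391 and 4125 CPM in ex vivo 1, 2 and 3, 24.7 to 74.7 CPM in organoids and 39.4 to 58.9 CPM in cells, with C1qa, C1qc, Cd163 and Itgam at 0 in both cultures. Without the filter, 12 of the 12 markers were called higher in tumors than in organoids, where 14.7% of all genes were. Against cells 11 were called higher, where 15.6% of all genes were, the exception being Cd14 (adjusted p 0.092). Against organoids the adjusted p of Cd14 was 0.033 without and 0.096 with the filter. Cd14 had a mean of 71.3 CPM in tumors, 36.12 CPM in organoids and 40.95 CPM in cells. It made up most of the sum in each culture library, with 69.92 CPM in organoids p7. The part of macrophages in the CC ligands was not tested.

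The homeostatic ligands of CCR7 set ex vivo 1 apart. Ccl21, which lymphatic endothelium and lymphoid stroma make to draw in T cells and dendritic cells, had 185, 1.28 and 2.52 CPM in ex vivo 1, 2 and 3, 1 count in organoids, in p7, and no count in cells. Ccl19, the other CCR7 ligand, had 41.2, 0.939 and 0.917 CPM in the 3 tumors and no count in the cultures. Ex vivo 1 was 97.1 times the mean of the other tumors for Ccl21 and 44.3 times for Ccl19, so that the size of the difference from the cultures rests on it. Ccl21 rose at least 1071-fold relative to cells (adjusted p 1.3e-07, with the filter 0.0062), and its ratio to organoids was 2986, with an exact 95% counting interval of 535 to 118000. Ccl19 rose at least 228-fold relative to organoids and at least 246-fold relative to cells (adjusted p 8.2e-07, with the filter 0.015). Without ex vivo 1 both still passed in the test without the filter. Ccl21 was then at least 33.96-fold higher than in cells, with a ratio to organoids of 94.6 (exact 95% counting interval 16.3 to 3801), and Ccl19 was at least 16.6-fold higher than in organoids and at least 17.8-fold higher than in cells. Without ex vivo 2 the bounds relative to cells were 1854-fold for Ccl21 and 416-fold for Ccl19. With the robust spread neither passed (adjusted p 0.13 for Ccl21 and 0.29 for Ccl19 against organoids, and 0.12 for Ccl21 and 0.29 for Ccl19 against cells). DESeq2 gave no adjusted p for either. Near-identical copies of Ccl21 exist in mice, and how reads would be split between copies in the rat table is not given in the sources used here.

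Their receptor Ccr7 had 17.1, 4.1 and 7.72 CPM in ex vivo 1, 2 and 3, 1.68, 0.722 and 0.725 CPM in organoids p7 through p9 and 0.0449, 0.113 and 0.284 CPM in cells p5, p8 and p11. It rose in tumors relative to both cultures and in organoids relative to cells (log2 fold change 2.83, adjusted p 0.0064, with the filter 0.043). The markers of other cells also separated ex vivo 1. The 6 markers of B and plasma cells summed to 509, 24.3 and 73.6 CPM in ex vivo 1, 2 and 3, 1.38 to 2.67 CPM in organoids and 1.41 to 2.28 CPM in cells, with all 6 called higher in tumors than in either culture and Pax5 at 0 in both cultures. The 3 lymphatic endothelial markers summed to 74.4, 21.4 and 30.5 CPM in the tumors, 0.493 to 0.944 CPM in organoids and 0.284 to 0.396 CPM in cells, but only Lyve1 was highest in ex vivo 1 (68.4 CPM), since Prox1 had 0.644, 4.79 and 5.2 CPM. The 4 adipocyte markers summed to 369, 15.2 and 19.1 CPM in ex vivo 1, 2 and 3, 6.72 to 31.9 CPM in organoids and 1.25 to 2.52 CPM in cells. The 4 erythrocyte markers, all called higher in tumors than in either culture, summed to 1010, 168 and 274 CPM in ex vivo 1, 2 and 3, 0.0986 to 0.278 CPM in organoids and 0.0449 to 0.114 CPM in cells. Among all genes, 14.7% were called higher than in organoids and 15.6% higher than in cells. The part of these cell types in the levels of Ccl19 and Ccl21 was not tested.

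The CCR4 ligand Ccl22, a product of dendritic cells and macrophages, had 10.2, 4.89 and 5.05 CPM in ex vivo 1, 2 and 3, 1 count in organoids and none in cells. It rose at least 125-fold relative to cells (adjusted p 2.0e-09), and its ratio to organoids was 348 (exact 95% counting interval 62.0 to 13790). Ccl17, the other CCR4 ligand, had 0.787, 0.346 and 0.612 CPM in ex vivo 1, 2 and 3 and no count in the cultures. All 3 tumors lay above the cultures, and Ccl17 had an adjusted p of 0.0035 against organoids and 0.0030 against cells in edgeR without the filter, which it did not pass. Their receptor Ccr4 had 0.93, 0.346 and 0.688 CPM in the same tumors, at most 0.0659 CPM in organoids and no count in cells. Ccl1, the ligand of CCR8, had 2.43, 0.939 and 0.229 CPM in ex vivo 1, 2 and 3 and no count in the cultures, and did not pass the filter either. Ccr8 had 2.43, 3.36 and 3.06 CPM in the same tumors and no count in any culture. Xcl1, the C ligand that T and NK cells make and that acts on XCR1 of dendritic cells, had 1.22, 1.48 and 0.994 CPM in ex vivo 1, 2 and 3 and no count in the cultures. It rose at least 22.6-fold relative to organoids (adjusted p 6.3e-05) and at least 24.3-fold relative to cells (adjusted p 5.0e-05). Xcr1 had 2.43, 0.939 and 0.535 CPM in the tumors and 1 count in all cultures together.

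The other ligands that stayed under 1 CPM on average had few counts. Ccl25, the CCR9 ligand of the small intestine, had 0.0716, 1.43 and 0.917 CPM in ex vivo 1, 2 and 3, 0.542 to 0.989 CPM in organoids and 0.135 to 0.284 CPM in cells, and passed in none of the 3 comparisons. Ex vivo 1 was the lowest library for Ccl25, in contrast to most other CC ligands. Ccl11, or eotaxin, had 16 counts in the tumors and none in the cultures, and its adjusted p without the filter (0.025 against cells and 0.027 against organoids) was over the threshold in 10 of the 12 fits that left out a library of the comparison. Ccl27 and Ccl28, ligands of CCR10, stayed under 0.34 CPM in every library, and Ccl26 had no count at all.

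Of the 18 chemokine receptors, 16 were called higher in ex vivo tumors than in cells and 15 higher than in organoids. Of all genes, 15.6% were called higher than in cells and 14.7% higher than in organoids. With the filter 12 receptors remained, of which 12 were higher than in cells and 10 higher than in organoids. The shares of all genes kept were 20.2% and 19.6%. The median log2 fold change of the 18 was 5.19 against organoids and 6.35 against cells, where all genes had 0.27 against organoids and 0.31 against cells. Between organoids and cells 2 were called higher (Ccr1 and Ccr7), where 4.82% of all genes were. Of the 5 atypical receptors, 4 were called higher and 1 lower in tumors than in organoids, and 5 higher than in cells. The lower one was Ackr3 (log2 fold change -0.94, adjusted p 0.031 without and 0.080 with the filter). Ackr1, which marks venules, had 9.8, 1.14 and 2.52 CPM in ex vivo 1, 2 and 3 and no count in the cultures. Among the 5 genes whose products process ligands, Mmp12, the macrophage elastase, rose in tumors (71.2, 69.1 and 67.7 CPM in ex vivo 1, 2 and 3, 0.345 to 2.83 CPM in organoids and 0.0565 to 0.404 CPM in cells), while the sheddases Adam10 and Adam17 passed in none of the 3 comparisons. Of the 10 transcription factors listed for chemokine genes, 3 were called higher and 1 lower in tumors than in organoids, and 5 were called higher than in cells. Among all genes, 14.7% were called higher and 7.43% lower than in organoids, and 15.6% higher than in cells. Nfkb1, which encodes an NF-kB subunit, had 89.4 to 127 CPM in tumors, 92.4 to 105 CPM in organoids and 95.9 to 107 CPM in cells, so that its level overlapped in all 3 sample types. Relb, which encodes another subunit, had 34.3, 15.2 and 19.6 CPM in ex vivo 1, 2 and 3, 5.92, 13.9 and 14.1 CPM in organoids p7 through p9 and 3.46, 7.24 and 13.1 CPM in cells p5, p8 and p11. It rose in tumors relative to cells (log2 fold change 1.54, adjusted p 0.0044, with the filter 0.035). Stat6 fell in tumors relative to organoids (log2 fold change -1.13, adjusted p 0.0013).

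**Figure D4:**
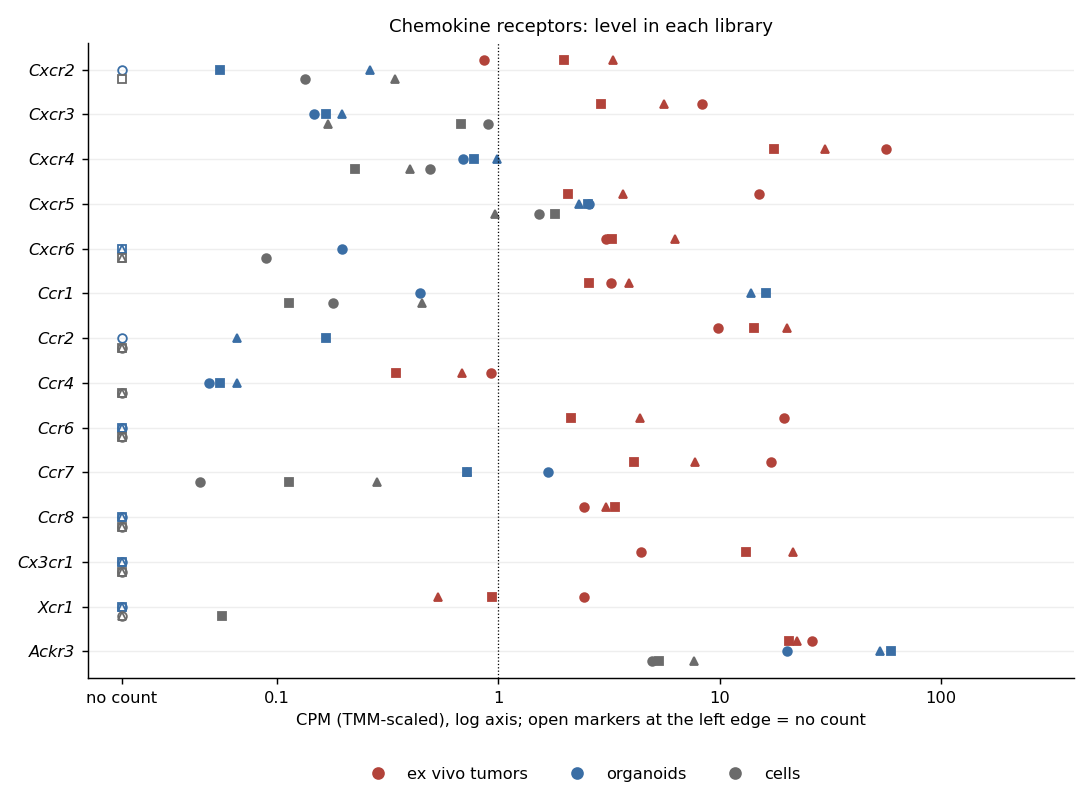
CPM (TMM-scaled, log axis) of 14 chemokine receptors whose ligands are described, in each library, with circles for ex vivo 1, organoids p7 and cells p5, squares for ex vivo 2, organoids p8 and cells p8, and triangles for ex vivo 3, organoids p9 and cells p11; open markers at the left edge are libraries with no count and the dotted line is at 1 CPM. Most receptors lie to the right in the tumors, while Ackr3 is counted in all 9 libraries and Ccr1 is highest in organoids p8 and p9 (16.2 and 13.9 CPM).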

How the data were processed

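RNA was sequenced from 9 libraries (KAPA mRNA Hyperprep, Illumina HiSeq). Per the study's methods and the submitters' processing notes, reads were checked with FastQC 0.11.9 and MultiQC 1.9, the first 11 bases and bases of a Phred score under 20 were trimmed with Cutadapt 1.18, and reads were aligned to mRatBN7.2 with STAR 2.7.4, which also gave counts per gene. The deposited table is labelled as normalized. Its library totals are whole numbers that differ between libraries, so it was taken to hold these raw counts. It was not taken to hold the quantile-normalized log2 values on which the authors classified the samples. Neither the annotation nor the use of strand in counting is stated in the sources, so reads of overlapping or antisense genes may be mixed. All columns were used.

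Genes with any count (27324) were scaled by TMM and fitted in edgeR 4.0.16 (R 4.3.3) with 1 mean per sample type over the 9 libraries (6 residual degrees of freedom) by glmQLFit. Sample types were compared with a two-sided glmQLFTest, with p-values adjusted by Benjamini-Hochberg over all genes and calls made under 0.05. The SE of a log2 fold change is its size over the root of F. On simulated counts this unfiltered fit made more false calls than its threshold allows, so, after the data had been seen, "rose" and "fell" were kept for genes called also after edgeR's filterByExpr. Where a sample type had no count, 3 counts over its libraries served as the floor of a fold, and ratios to 1 to 3 counts carry exact 95% intervals. Floors and intervals cover counting error only.

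Alternatives were filterByExpr, the filter of the study (mean quantile-normalized log2(count + 1) of at least 4), DESeq2 1.42.0 with its size factors and their use in edgeR, total count scaling, limma 3.58.1 on quantile-normalized log2 values (pseudocount 1), limma-voom with sample weights, a robust spread, a fit of the 6 libraries compared, thresholds of 0.5 and 2 CPM for the split of the ligands, and leaving out each library. For the split, leaving out libraries was added after the data had been seen.

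Every ligand was named, with values per library where its mean reached 1 CPM in a sample type. Of the processing enzymes the members with the highest mean level were named, and of the receptors mainly those of described ligands. The transcription factors and markers named were a choice made with their values known. Most of the host cell markers named had no count in the cultures and were not the highest of their lists. Members with higher levels, among them Lyz2, Col1a1 and Cd8a, are in the sums only. Of these lists, 1 receptor and 1 transcription factor are counted but not reported here by name. Ligands and lists were chosen with earlier results of these data known. Promoters are RefSeq entries of GRCr8 matched by symbol; Ccl2, Ccl3, Ccl4, Ccl5, Ccl11 and Cxcl3 had no entry. Plots used matplotlib 3.10.9 (Python 3.11.15).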

Additional observations from a re-analysis of the deposited data

How the results depend on the processing

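Of 1189 log2 fold changes of single ligands under an alternative, 1076 kept their direction and their side of the threshold, 89 lost a call, 23 gained one and 1 was reversed, and 20 that no fit called changed sign. The reversed one was Ccl20 in ex vivo tumors against organoids, 0.22 with all libraries, -2.55 without ex vivo 1 and otherwise -0.33 to 1.04 when a library was left out. The ligands called higher in ex vivo tumors than in organoids, and than in cells, were 2 in each comparison with the filter of the study, which kept 8 ligands. Those called lower in tumors than in organoids were 2 with that filter, 2 with limma on quantile-normalized values and 1 with the robust spread. The 1 ligand lower in tumors than in cells (Cxcl6) was not called (0) with filterByExpr, the filter of the study, DESeq2, limma on quantile-normalized values, limma-voom or the robust spread, and the count was 0 to 1 when a library was left out (0 without cells p11). For organoids against cells, the 5 called higher became 2 with filterByExpr, 3 with DESeq2, 1 with limma on quantile-normalized values, 10 with limma-voom and 2 with the robust spread, and 3 to 8 when a library was left out (3 without cells p5 or p8, 8 without ex vivo 1 or organoids p7). The 2 called lower became 0 with filterByExpr, with the filter of the study and with limma on quantile-normalized values, 1 with DESeq2, limma-voom, the robust spread and the fit of 6 libraries, and 1 to 2 when a library was left out. Cxcl6 and Cxcl1, which were not called higher in organoids than in cells, were called without any of ex vivo 1, ex vivo 3, organoids p7, organoids p9 and cells p11. The cause of these changes was not tested.

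Quantile normalization moved the median log2 fold change of expressed genes to -0.21 in ex vivo tumors against organoids and -0.26 against cells, where TMM gave -0.03 and -0.08. It called 3065 genes higher and 3592 lower than in organoids and 3003 higher and 3465 lower than in cells, where edgeR with TMM called 4006 and 2030 against organoids and 4249 and 1522 against cells. At 0.5 CPM, Cxcl17 and Ccl25 counted as made by the cultures, Ccl17 as seen only in ex vivo tumors, and Ccl2 as neither; at 2 CPM, Cxcl17, Ccl20, Ccl1 and Xcl1 counted as neither. No paired analysis was possible because the sample types share at most 1 passage number.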
